A study of Oryctolagus cuniculus with 24 samples.

Results

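The intestinal epithelial cell (IEC) fraction of rabbits that had received both whipworm ova and a chemical colitis inducer was compared with that of control rabbits. New Zealand white (NZW) rabbits, 8 to 10 weeks old, were given 3 intragastric doses of 2500 Trichuris suis ova (TSO) or vehicle (Veh), at days 1, 14 and 21. From day 26, dextran sulphate sodium (DSS) was offered at 0.1% in fennel tea for 5 days, and the groups named Water drank the tea alone. Rabbits were killed at day 35, and RNA was sequenced after polyA selection from epithelial cells detached from the caecum with EDTA and from the lamina propria mononuclear cells (LPMC) of the same animals. The 6 libraries compared are the IEC of 3 TSO DSS rabbits and of 3 Veh Water rabbits, taken by their sample labels out of 24 libraries in all. Each library comes from 1 animal, and the DSS and Water arms within TSO and Veh (3 IEC libraries each) were used to see which treatment a difference follows.

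The caecal epithelium is a single layer of absorptive, mucus-secreting and sensory cells that separates microbes from the immune cells of the lamina propria below. Whipworms live with their anterior end embedded in this layer, where they meet epithelial cells before any other host cell, and the host answers them with a type 2 response of eosinophils, mucus and faster epithelial turnover. DSS damages the same layer from the luminal side, so that immune cells enter it and repair programmes start. A fraction detached with EDTA holds intraepithelial lymphocytes and, where the layer is broken, other leukocytes, besides epithelial cells.

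Genes are known here by Ensembl identifiers and a chromosome, because the files do not pair them with symbols and none of the 17318 identifiers matched the reference table of symbols. The cell type markers that had been chosen by symbol could therefore not be looked up. In their place, genes with a log2 difference above 3 between the fractions in each of the 3 TSO Water rabbits, which are outside the comparison, were used as lists of the LPMC and IEC fractions. The lists were made from the labels of those rabbits, so they do not check what the fractions are. The IEC-enriched genes took between 1.18% and 3.46% of the non-mitochondrial reads of the 12 IEC libraries and between 0.0426% and 0.149% of those of the LPMC libraries.

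The TSO DSS libraries held 15588321, 23068280 and 17583060 reads on genes and the Veh Water libraries 27479786, 21449200 and 13148508. Mitochondrial genes took 20.9%, 21.2% and 46.5% of the reads in TSO DSS and between 20.1% and 21.0% in Veh Water, so that the third TSO DSS rabbit stood apart among these 6, while a TSO Water library outside the comparison reached 41.7%. In the library of the first Veh Water rabbit, 3 mitochondrial genes were listed at 0, although they held between 304782 and 1765037 reads in each of the other 5 libraries. A listed 0 can therefore be a failed count, and the mitochondrial share of 20.1% in that library leaves these genes out. Over all 12 IEC libraries, 276 genes were at 0 in some libraries and at 20 reads or more in every other one, and these are called all-or-none genes below. The sample sheet in the study's supplement, though not the sample labels, puts the first Veh Water rabbit in another room than the other 5 animals.

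Many genes were higher in the epithelial fraction of TSO DSS rabbits and few were lower. A gene was called when its log2 fold change exceeded 1 in size and its p-value in limma, adjusted by the method of Benjamini and Hochberg, was below 0.05. Of 11225 genes tested, 401 (3.57%) were called, of which 389 (3.47%) were higher with TSO and DSS and 12 (0.107%) were lower. Without adjustment 1110 genes (9.89%) passed. On the reads recovered from the signal, edgeR's quasi-likelihood test called 366 genes, 359 of them higher, and DESeq2 called 746. The groups did not overlap for 21.9% of all genes tested, 13.6% with TSO DSS above and 8.23% with TSO DSS below, and for all 401 called genes. The median log2 fold change of all genes tested was -0.02. The count rests in part on single animals. Without the first TSO DSS rabbit 129 genes were called, without the third Veh Water rabbit 211, and without the third TSO DSS rabbit, the one rich in mitochondrial reads, 419, of which 383 were higher and 36 lower. With the mitochondrial reads left out, 381 genes were called. Without the first Veh Water rabbit, which that sheet puts in another room, 333 genes were called, 323 of them higher. The count was 137 without a filter on low genes and 136 with all 12 IEC libraries in the fit.

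**Figure D1:**
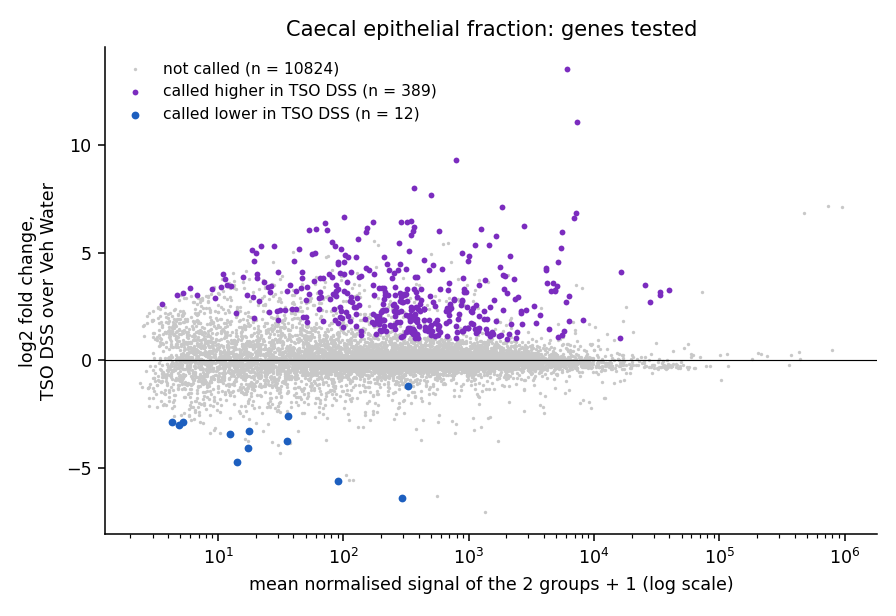
Log2 fold change of TSO DSS over Veh Water (vertical axis) against the mean normalised signal of both groups plus 1 (horizontal axis, log scale), 1 point for each of the 11225 genes tested in IEC. The 389 genes called higher (purple) lie at all signal levels, and the 12 called lower (blue) lie mostly at low signal.

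The genes called higher differed widely in level and in the size of their change. Their median log2 fold change was 2.70, or 2.52 when the 25 genes with no more than 3 reads in every Veh Water library were set to the bound that 3 reads allow. Of the 389, 270 rose by more than 2 on the log2 scale, 164 by more than 3, 82 by more than 4 and 40 by more than 5. The mean of the median gene was 477 reads with both treatments and 96.7 in Veh Water, and 54 of the 389 had fewer than 100 mean reads in both groups. These genes together took 6.54%, 6.00% and 5.59% of the non-mitochondrial reads in the 3 TSO DSS rabbits, against 0.915%, 1.21% and 0.862% in the Veh Water rabbits. In every TSO DSS library this share was above that of every Veh Water library, as the choice of the genes requires.

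The genes called lower were weakly expressed. Their median log2 fold change was -3.35, or -2.70 with the 6 genes at 3 reads or fewer in every TSO DSS library set to their bound. The mean of the median gene was 1.83 reads with both treatments and 37.2 in Veh Water, and 9 of the 12 had fewer than 100 mean reads in both groups. Leaving out the first, the second or the third TSO DSS rabbit gave 3, 56 and 36 genes called lower, and leaving out the third Veh Water rabbit gave 7.

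The 2 largest changes of each direction among called genes show different patterns over the 4 groups. ENSOCUG00000004736, on chromosome 13, had 10000, 1761 and 20652 reads in IEC of TSO DSS and 9, 8 and 0 in Veh Water. It rose by 11.09 on the log2 scale (SE 1.26), with an adjusted p = 0.0072 in limma. Its reads were also high in the rabbits given TSO without DSS, with 2131, 1133 and 3223, and low in those given DSS without TSO, with 22, 28 and 5. Every IEC library with TSO thus lay above every IEC library without it. Read side by side in TSO Water against Veh Water, which uses the same Veh Water libraries, its log2 fold change was 9.46 (SE 0.83). That difference had an adjusted p = 0.158 in limma. Against Veh DSS the log2 fold change of TSO DSS was 9.05 (SE 1.15), with an adjusted p = 0.612 in limma.

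In LPMC the same gene was also higher in rabbits given TSO than in the Veh Water rabbits. It held 1438, 841 and 15 reads in LPMC of TSO DSS and 2434, 366 and 926 in LPMC of TSO Water, against 4, 3 and 2 in Veh Water and 5, 46 and 18 in Veh DSS. It rose in LPMC of TSO Water by 7.82 on the log2 scale (SE 0.56), with an adjusted p = 0.0199 in limma, and in LPMC of TSO DSS by 6.59 (SE 1.32), with an adjusted p = 0.0408. In the third TSO DSS rabbit, whose LPMC library was the smallest at 3685522 reads, it had 15 reads, the fewest of the LPMC libraries with TSO. Scaled for depth, every LPMC library with TSO lay above every one without it. In IEC, leaving out the first TSO DSS rabbit gave an adjusted p = 0.0502 in limma, and leaving out each of the other 5 libraries in turn kept the call, with adjusted p-values from 0.0077.

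ENSOCUG00000001324, also on chromosome 13, had the largest log2 fold change, 13.52 (SE 0.27, adjusted p = 1.0e-05 in limma). With every Veh Water library at 0 this value is set by the pseudocount, and it was 16.84 with 0.1 and 10.20 with 10. It is an all-or-none gene. It held 8938, 11340 and 11226 reads in TSO DSS and was listed at 0 in all 3 Veh Water libraries. It was listed at 0 in 7 of the 24 libraries and held between 1653 and 18703 reads in all others. Both fractions of 1 animal could differ. The first Veh Water rabbit was listed at 0 in IEC and had 8379 reads in LPMC, and the first TSO DSS rabbit had 8938 reads in IEC and was listed at 0 in LPMC. In IEC it was listed at 0 in 3 of 3 Veh Water, 1 of 3 Veh DSS, 1 of 3 TSO Water and 0 of 3 TSO DSS libraries, and what sets the zeros was not tested. With all 12 IEC libraries in the fit its adjusted p was 0.137 in limma. Of the 93 all-or-none genes tested, 3 were called higher (3.23%), close to the 3.47% of all genes tested, and 0 lower, against 0.107%, and with all 93 left out 415 genes were called.

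ENSOCUG00000014009, on chromosome 12, had the largest fall among called genes. It held 1169, 683 and 328 reads in Veh Water and 1, 14 and 7 in TSO DSS. Its log2 fold change was -6.41 (SE 0.68), with an adjusted p = 0.0059 in limma. Reads in Veh DSS were 197, 11 and 22, and in TSO Water 384, 326 and 87, so that both single treatments lay between the groups compared, with 1 Veh DSS library within the range of TSO DSS and 1 TSO Water library within that of Veh Water. Against TSO Water its log2 fold change was -5.46 (SE 0.80, adjusted p = 0.0329 in limma), while against Veh DSS its log2 fold change was -2.44 (SE 1.12, adjusted p = 1.00 in limma). Its interaction of TSO with DSS was -1.52 (SE 1.29), with an adjusted p of 1.00 in limma. In LPMC of the same rabbits it fell from 392, 1326 and 702 reads in Veh Water to 1, 56 and 0 in TSO DSS, a log2 fold change of -7.08 (SE 1.39, adjusted p = 0.0397 in limma).

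ENSOCUG00000024465, on chromosome 14, held 180, 429 and 51 reads in Veh Water and 1, 12 and 0 in TSO DSS. Its log2 fold change was -5.63 (SE 0.99), with an adjusted p = 0.0288 in limma. It held 255, 10 and 36 reads in Veh DSS, which scaled for depth overlapped both groups compared, and 72, 88 and 44 in TSO Water, which overlapped Veh Water. In LPMC it fell from 267, 367 and 220 reads in Veh Water to 2, 6 and 6 in TSO DSS, a log2 fold change of -5.17 (SE 0.63, adjusted p = 0.0122 in limma). The call in IEC was lost when any of 5 of the 6 libraries was left out, with adjusted p-values up to 0.129. It was also lost in edgeR's quasi-likelihood test (adjusted p = 0.0555) and, in limma, with a pseudocount of 0.1 (adjusted p = 0.0837) and without a filter on low genes (adjusted p = 0.152). Without that filter ENSOCUG00000004736 (adjusted p = 0.0627) and ENSOCUG00000014009 (adjusted p = 0.0555) lost their calls in limma too.

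**Figure D2:**
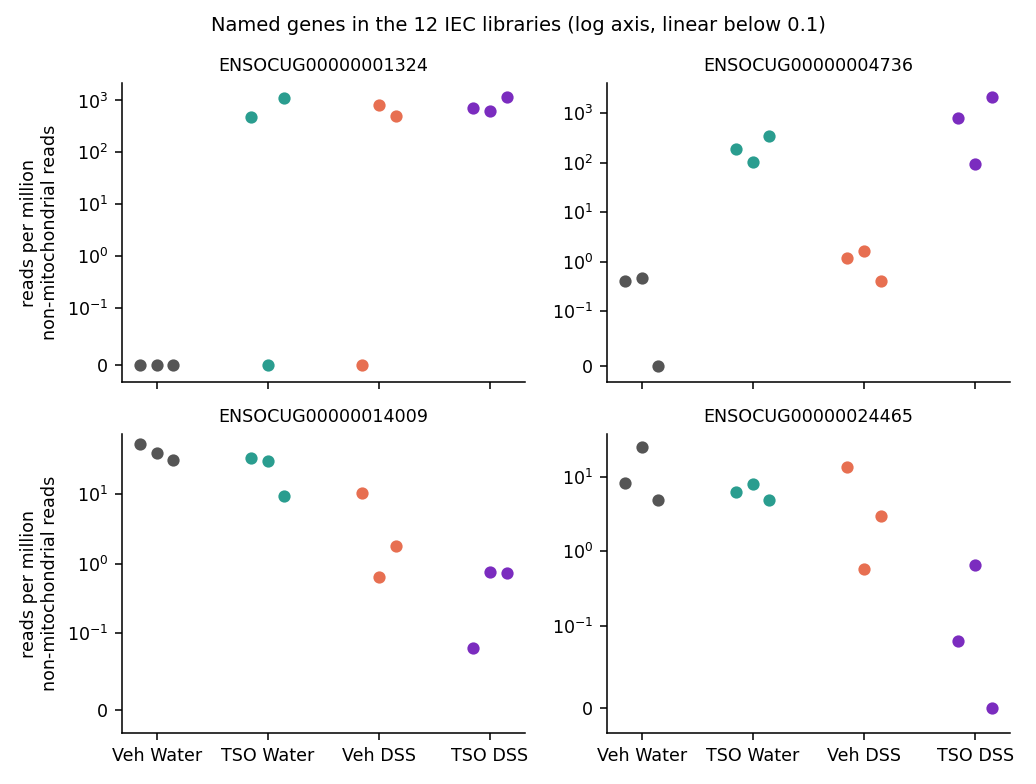
Reads per 1000000 non-mitochondrial reads (vertical axis, log scale, linear below 0.1) of the 4 named genes in the 12 IEC libraries, 1 point for each rabbit, by group. ENSOCUG00000004736 is high in all libraries with TSO, and ENSOCUG00000001324 is either listed at 0 or high. Both genes in the lower panels are low in TSO DSS, with the second Veh DSS rabbit within the range of TSO DSS.

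To see which treatment the called genes follow, their levels were read in the IEC of the other groups, with all 12 IEC libraries scaled together. Against the mean of Veh Water, the median log2 difference of the 389 genes called higher was 2.80, 2.50 and 2.66 in the TSO DSS rabbits. It was 0.85, 3.48 and 2.17 in the Veh DSS rabbits and between 0.48 and 0.56 in the TSO Water rabbits. The second Veh DSS rabbit lay above all TSO DSS rabbits and the first lay near the TSO Water rabbits. The levels and the small spread of TSO DSS and Veh Water were part of the choice of the genes. The genes took 1.76%, 12.0% and 5.61% of the non-mitochondrial reads in Veh DSS and between 1.43% and 1.57% in TSO Water. For the 12 genes called lower the medians were -3.53, -3.27 and -3.03 in TSO DSS, -0.59, -2.31 and -2.92 in Veh DSS, and between -1.36 and -0.25 in TSO Water.

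**Figure D3:**
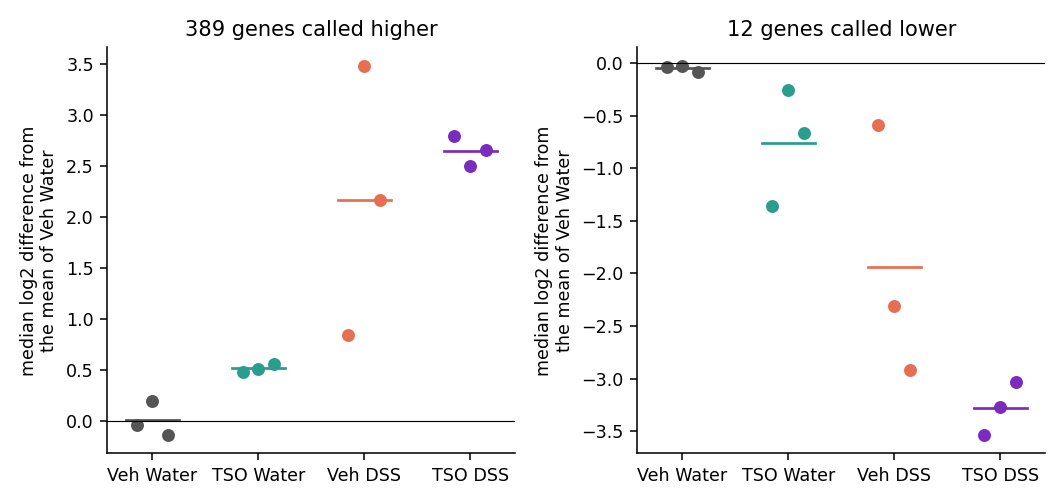
Median log2 difference from the mean of the Veh Water libraries (vertical axis) over the 389 genes called higher (left) and the 12 called lower (right), 1 point for each of the 12 IEC libraries, with a line at the group mean. On the left the TSO DSS points lie from 2.50 to 2.80 and the Veh DSS points from 0.85 to 3.48.

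The comparison of Veh DSS with TSO Water uses no library that chose the called genes, so it gives these genes values of their own. There, 372 of the 389 genes had a log2 fold change above 0, against 5386 of all 11382 genes tested. The median of the 389 was 1.60, against -0.02 over all genes tested. Of the 389, 286 (73.5%) were above 1, against 8.49% of all genes. Without adjustment of p, 177 (45.5%) passed as higher in Veh DSS, against 3.68% of all genes. With adjustment, limma called 3 genes of all (0.0264%) and 0 of the 389, edgeR's quasi-likelihood test 0 of the 389 and DESeq2 145, against 246 of all 11382 called in either direction. Leaving out the first Veh DSS rabbit gave 117 called genes in limma, and leaving out the second Veh DSS rabbit or any TSO Water rabbit gave 0 or 1. Most genes called higher with both treatments thus had higher levels with DSS alone than with TSO alone, and in limma none of these differences passed the adjusted threshold.

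The same genes were read in the comparisons that share the Veh Water libraries. In Veh DSS against Veh Water their median log2 fold change was 2.12, over the 380 tested there, and 355 were above 1 (93.4%), against 8.87% of all genes. In TSO Water against Veh Water it was 0.48 over 362 genes, of which 90 were above 1 (24.9%), against 2.72% of all genes. These values share their control libraries with the comparison that chose the genes.

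Within DSS, TSO made little difference that could be detected. Between TSO DSS and Veh DSS, limma called 1 of 11382 genes (0.00879%), edgeR's quasi-likelihood test 0 and DESeq2 31, and 187 genes (1.64%) passed at the unadjusted p-value. The single gene was a mitochondrial all-or-none gene, listed at 230, 234 and 266 reads in TSO DSS, at 0 in all Veh DSS libraries and at 0, 242 and 0 in Veh Water, and it was no longer tested when all-or-none genes were left out, which gave a count of 0. For the 389 genes called higher against Veh Water, the median over Veh DSS was 0.27 on the log2 scale, against 0.0033 over all genes. Of the 389, 308 were above 0, against 5768 of all 11382, and 67 (17.2%) were above 1, against 4.20% of all. The 12 genes called lower had a median of -1.08, and all 12 were below 0, against 5604 of all 11382. The TSO DSS libraries of this comparison are those that chose both sets of genes, so these directions were favoured by the choice.

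Within TSO, DSS went with calls that were nearly all higher. Between TSO DSS and TSO Water, 191 genes were called in limma (1.68%), 187 higher (1.64%) and 4 lower (0.0351%). The 389 genes had a median log2 fold change of 2.00 there, and the 12 genes called lower a median of -2.68, again with the TSO DSS libraries that chose them. The largest rise was that of a gene on chromosome 1, with 1737, 2605 and 342 reads in TSO DSS, 379, 1554 and 215 in Veh DSS, 2, 4 and 0 in TSO Water and 4, 0 and 1 in Veh Water. Every IEC library with DSS lay far above every library without it. In limma it rose by 8.73 on the log2 scale against TSO Water (SE 0.82, adjusted p = 0.0099) and by 9.32 against Veh Water (SE 0.73, adjusted p = 0.0023). In this comparison DESeq2 called 475 genes, and limma called 57 without a filter on low genes and 12 with all 12 IEC libraries in the fit. The count was 22 without the first TSO DSS rabbit, and 107 and 95 without the second and the third TSO Water rabbit.

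Whether the effects of both treatments add up on the log2 scale was asked by an interaction term fitted to the 12 IEC libraries. Its adjusted p-value passed the threshold for 0 genes in limma and in edgeR's quasi-likelihood test and for 10 in DESeq2. Without adjustment 171 of 11382 genes (1.50%) passed in limma. Leaving out 1 rabbit gave between 0 and 3 genes, the highest without the first Veh Water rabbit.

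In the TSO Water rabbits, the genes called higher mostly had higher levels in LPMC than in IEC. There the median of their log2 difference between LPMC and IEC of the same animal was 2.23, against -0.02 over all genes tested. LPMC lay above IEC in all 3 rabbits for 348 of the 389 (89.5%), against 30.1% of all genes tested, and IEC lay above LPMC in all 3 for 4 (1.03%), against 26.3%. Among genes with a log2 difference over 3, 106 of 569 (18.6%) were called higher. Among those between 1 and 3 it was 222 of 1632 (13.6%), and among those under -3, 0 of 152. The median log2 fold change of TSO DSS over Veh Water went from -0.52 in the lowest class to 1.01 in the highest. The choice of the 389 genes favoured low levels in IEC of Veh Water. In IEC of TSO Water their medians lay only 0.48 to 0.56 above Veh Water on the log2 scale. A low level in IEC raises the difference between fractions, so the choice also favoured LPMC above IEC here.

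The shares were different when the difference between fractions was taken from the Veh DSS rabbits. There the 389 genes had medians of 1.46, -0.93 and 0.43 in the 3 rabbits, and LPMC lay above IEC in all 3 for 45 (11.6%), against 23.2% of all genes tested. Among genes with a log2 difference over 3 in these rabbits, 6 of 158 (3.80%) were called higher, which is close to the 3.47% of all genes tested. The class from 1 to 3 had the highest share, with 82 of 1279 (6.41%). In the Veh DSS rabbits, then, the called genes lay on no common side of the fractions. What sets the difference between the shares was not tested.

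**Figure D4:**
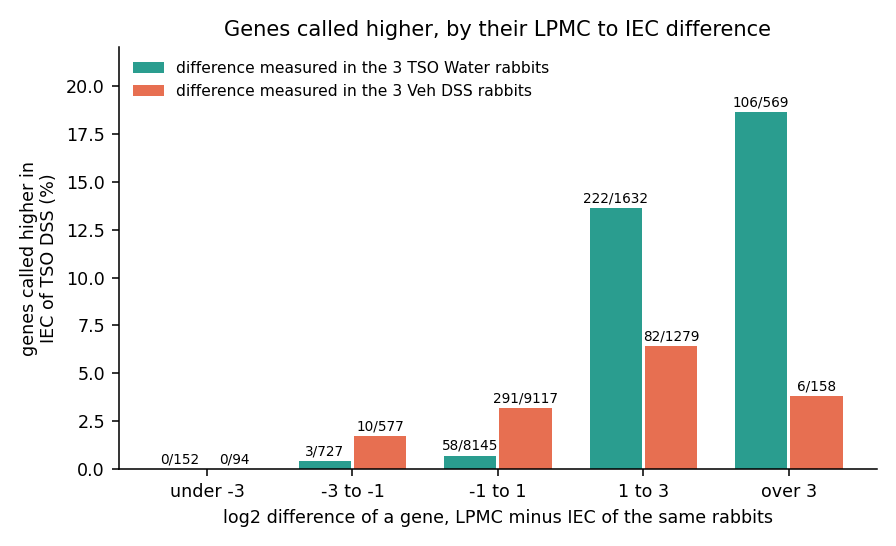
Share of genes called higher in IEC of TSO DSS against Veh Water (vertical axis, %), by the log2 difference of LPMC minus IEC of the same gene (horizontal axis, 5 classes), taken from the 3 TSO Water rabbits (green) or the 3 Veh DSS rabbits (orange). Numbers above the bars are genes called higher over genes tested, and the share reaches 18.6% in the highest green class and 3.80% in the highest orange class.

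The list of LPMC-enriched genes was drawn from the same TSO Water differences as the classes above, so it is not separate from them. It held 265 genes, of which 248 were tested. Of these, 68 were called higher (27.4%), against 3.47% of all genes tested, and 0 lower, against 0.107%. A total of 208 were above 0, against 5330 of all 11225 genes tested. Of the 248, 111 had all TSO DSS libraries above all Veh Water libraries, against 1529 (13.6%) of all genes tested. Its median log2 fold change was 1.59, or 1.37 with genes at the floor set to their bound, and by rabbit it was 1.97, 2.69 and 0.71. Leaving out 1 library gave between 36 and 80 of these genes called higher, fewest without the first TSO DSS rabbit. The list took 2.39%, 2.15% and 1.17% of the non-mitochondrial reads of IEC with both treatments and 0.698%, 0.549% and 0.602% in Veh Water. It took 0.808%, 3.48% and 1.35% in Veh DSS, 0.527%, 0.982% and 0.402% in TSO Water, and between 6.37% and 19.8% in LPMC libraries. Of its 265 genes, 7 to 20 were at 0 reads in the TSO DSS libraries and 10 to 37 in Veh Water. In bulk RNA, more cells of a type and more RNA per cell cannot be told apart, and the part of LPMC carried into the IEC fraction in the 389 calls was not tested.

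A list made in the same way from the Veh DSS rabbits held 35 LPMC-enriched genes, 19 of them also in the first list. Of the 32 tested, 0 were called in limma or edgeR's quasi-likelihood test and 7 higher and 3 lower passed without adjustment, against 889 and 221 of all 11225. DESeq2 called the same numbers, 7 higher and 3 lower, against 678 and 68 of all 11225. The median log2 fold change was -0.33, with 15 genes above 0 and 17 below, and the list held 0 of the 389 genes called higher. Each list favours genes that are low in IEC of the rabbits that made it, without DSS for the first list and with DSS for this one. What sets the difference between the medians was not tested. The 51 genes with a log2 difference above 5 in each TSO Water rabbit had a median of 3.59, and 15 of the 44 tested (34.1%) were called higher, against 3.47% of all genes tested.

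**Figure D5:**
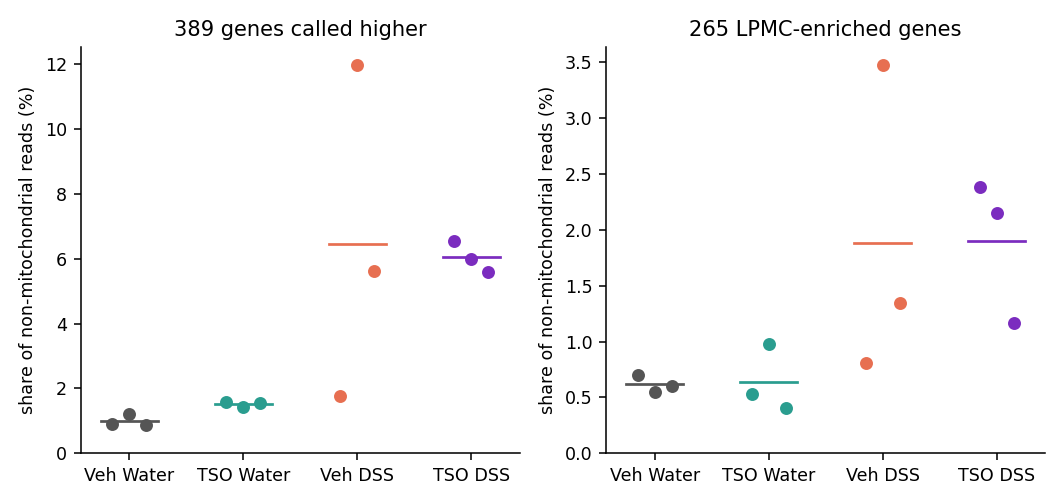
Share of non-mitochondrial reads (vertical axis, %) held by the 389 genes called higher (left) and by the 265 LPMC-enriched genes (right) in the 12 IEC libraries, 1 point for each rabbit, with a line at the group mean. TSO DSS lies above Veh Water in both panels, and the second Veh DSS rabbit is the highest, at 12.0% and 3.48%.

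Few genes on the IEC side were called higher, and in the classes under -1 the share called lower was above that of all genes tested. Among genes with a log2 difference under -3 in the TSO Water rabbits, 0 of 152 were called higher and 2 (1.32%) lower, against 3.47% and 0.107% of all genes tested. Between -3 and -1, 3 of 727 were called higher and 5 (0.688%) lower. Of the 89 IEC-enriched genes, 0 were called in limma and in edgeR's quasi-likelihood test, 8 were called lower in DESeq2, against 68 of all 11225, and 13 were lower without adjustment, against 221 of all 11225. The median log2 fold change was -0.49, 38 were above 0 and 51 below, and 12 had all TSO DSS libraries below all Veh Water libraries, against 8.23% of all genes tested. By rabbit the median was -0.38, -0.34 and -0.86, and without the third TSO DSS rabbit it was -0.075. A stricter list of 39 genes had a median of 0.56 and the 50 genes from the Veh DSS rabbits one of 0.55, so that no direction can be given for these genes. Their share of the non-mitochondrial reads was 3.46%, 1.58% and 1.18% with both treatments and 1.73%, 1.92% and 2.57% in Veh Water, which overlapped. Of the 37 mitochondrial genes, 25 were tested. In limma, edgeR's quasi-likelihood test and DESeq2 0 were called, against 401, 366 and 746 of all 11225. Without adjustment 1 was higher and 1 lower, against 889 and 221 of all. On 25 genes no reading is drawn from these counts. The median log2 fold change of the mitochondrial genes was 0.30. It was 1.55 in the third TSO DSS rabbit and -0.16 and -0.22 in the first and second, and without the third rabbit it was -0.18.

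The LPMC of the same rabbits were read side by side. There, TSO DSS against Veh Water gave 633 called genes of 11059 (5.72%), 89 higher (0.805%) and 544 lower (4.92%). Of the 389 genes called higher in IEC, 385 were tested in LPMC. Their median log2 fold change in LPMC was 0.43, against -0.053 over all genes tested there. Of the 385, 43 were called higher and 2 lower, against 0.805% and 4.92% of all. Above 1 were 117 (30.4%), against 4.41% of all. Of the 12 genes called lower in IEC, 6 were tested in LPMC. All 6 were below -1, against 20.4% of all genes tested there, and 3 were called lower, against 4.92%.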

How the data were processed

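RNAseq was available for IEC and LPMC of 12 rabbits, 3 a group. Per the labels, polyA RNA was sequenced without strand, and the submitters' processing notes name FastQC and the build OryCun2.0. The aligner, the counting program and the scaling are not given in the sources used here. The authors deposited a normalised signal per gene and library in 6 tables, 1 for each treated group and fraction against Veh Water, which is a read number times a factor of the library. The tables also hold a log2 ratio, a p-value and an FDR, which were not used. All 36 columns of per-library signal were used.

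The smallest step between low signals is the worth of 1 read, and dividing by it gave whole reads (100% of signals below 1000 came out whole, with a tolerance of 0.1). Totals are approximate, because high values are deposited with few digits. Genes were tested where more than 3 reads were found in at least 2 of the 3 libraries of either group. In R 4.3.3, limma 3.58.1 (trend) was fitted to log2(signal + 1) of the 6 libraries, with Benjamini-Hochberg adjustment. Fold changes are therefore on the log2(signal + 1) scale and understate the change of low genes. Groups that share no table were compared on recovered reads scaled together by TMM (edgeR 4.0.16). Alternatives were edgeR's quasi-likelihood test and DESeq2 1.42.0 on the recovered reads, other pseudocounts, filters, scalings and samples. The tests were checked on simulated counts.

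The named genes are the 2 called genes of each direction with the largest log2 fold change and no overlap between groups. The LPMC- and IEC-enriched lists needed a log2 difference above 3 in each of 3 rabbits and a mean of at least 50 reads. The comparison, the lists and the tests were chosen with earlier results of these data known. The all-or-none counts were left out, and the 12 IEC libraries fitted together for the single-treatment comparisons, as alternatives chosen after seeing the data. P-values measure the spread between 3 rabbits a group, and intervals from reads would cover counting error only.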

Additional observations from a re-analysis of the deposited data

How the results depend on the processing

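Of the 401 genes called in IEC of TSO DSS against Veh Water, none that was tested changed sign under any of the 20 other fits, and the count, also in its higher and lower parts, moved as follows. It was 137 (127 higher) without a filter on low genes, 746 (678 and 68 lower) in DESeq2, 136 (133 and 3) with all 12 IEC libraries in the fit, 202 (197 and 5) with the replicate block, and 1110 (889 and 221) at the unadjusted p-value. Leaving out 1 rabbit gave 129 to 419 genes, 126 to 383 of them higher and 3 to 56 lower. Calls lower were 7 with a pseudocount of 0.1 and in edgeR's quasi-likelihood test, 4 at a mean of at least 50 reads, and 19 with scaling by library size only, which moved the median of all genes to -0.26 and called 284 genes. The replicate numbers only name the samples: libraries of the same number deviated together with correlations of -0.079, 0.10 and 0.023 across genes, and the count with the block is given for that reason without further use.

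For TSO DSS against Veh DSS the count of 1 became 0 in edgeR's quasi-likelihood test, with the replicate block, without all-or-none genes and with all 12 libraries, 31 in DESeq2 and 187 unadjusted, with 0 to 2 when 1 rabbit was left out. For TSO DSS against TSO Water the 191 became 57 without a filter, 475 in DESeq2, 44 with the replicate block, 12 with all 12 libraries and 813 unadjusted, with 22 to 166 when 1 rabbit was left out. For Veh DSS against TSO Water the 3 became 6 without a filter and with scaling by library size, 1 in edgeR's quasi-likelihood test and without all-or-none genes, 246 in DESeq2, 0 with the replicate block, 7 with all 12 libraries and 511 unadjusted, with 0 to 117 when 1 rabbit was left out. The interaction count of 0 became 1 with a pseudocount of 0.1, 10 in DESeq2 and 171 unadjusted, with 0 to 3 when 1 rabbit was left out.

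The median of the LPMC-enriched list was 1.17 to 2.15 when 1 rabbit was left out, 3.59 with the stricter list and -0.33 with the list from the Veh DSS rabbits. That of the IEC-enriched list was -0.71 to -0.075, 0.56 and 0.55, and that of the mitochondrial genes -0.18 to 0.69. The cause of these shifts was not tested. With reads thinned to the smallest of the 6 libraries, 406 genes were called against Veh Water, 396 higher and 10 lower.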

Other observations

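The share of genes called higher in IEC of TSO DSS was lowest among the least counted genes. It was 1.02% of the 879 genes with a mean under 10 reads over the 6 libraries, 3.74% of the 2217 genes from 10 to 100 reads, 4.11% of the 5207 genes from 100 to 1000, 2.80% of the 2713 genes from 1000 to 10000 and 3.35% of the 209 genes above. The median standard error of the log2 fold change fell from 0.72 in the lowest class to 0.16 between 1000 and 10000 reads. Genes called lower were found only under 1000 mean reads, in 9 cases under 100.

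By chromosome, the share called higher was highest on chromosome 12, with 42 of 763 genes (5.50%), and on chromosome 8, with 20 of 405 (4.94%). It was lowest among the nuclear chromosomes on chromosome 5, with 2 of 303 (0.660%), and was 0 of 25 on the mitochondrial genome. No test was made of these shares.

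Only 4 of the 389 genes called higher were above LPMC in the IEC of all 3 TSO Water rabbits. Their median log2 fold change was 2.68.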
